A study of Mus musculus with 6 samples.

Results

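HSP90 is the chaperone that finishes the folding of signalling proteins such as steroid receptors and kinases, and its co-chaperones load those clients, set the pace of its ATPase or release it. The transcripts described here are those of 2 cytosolic HSP90 genes (Hsp90aa1 and Hsp90ab1), the mitochondrial HSP90 Trap1, and the co-chaperone genes Ahsa1, Ahsa2, Stip1, Cacybp, Chordc1, Fkbp4 and Cdc37. They were chosen by name, as the probes whose transcript accession belongs to 1 of these 10 genes, which gave 15 of 56605 probes and 10 of 22911 named genes. Hsp90aa1 is known as the heat-inducible cytosolic form and Hsp90ab1 as the constitutive one. In unstressed cells HSP90 is also known to hold heat shock factor 1 inactive. Astrocytes, like other cells, use the system to keep clients such as the glucocorticoid receptor ready for ligand.

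The series holds 6 Agilent arrays in 1 colour, 3 with RNA of C8D1A cells given pulsed radiofrequency (PRF), a stimulation by short bursts of high-frequency current, and 3 with RNA of untreated C8D1A cells (control). C8D1A is a single cloned mouse astrocyte line. Both groups had 6 days in medium with 10% serum and then 24 h without serum before use, and the labels give 3 independent experiments. The sources used here do not state the settings of the stimulation or when RNA was taken. The question was how expression differs in PRF cells from that in untreated cells.

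Between 62.1% and 63.9% of probes were well above background on the PRF arrays and between 59.5% and 61.2% on the control arrays. Of 11 astrocyte markers 9 were well above background on all 6 arrays, while Slc1a3 and Gja1 were not on any array by their brightest probe. All 6 oligodendrocyte markers, 5 of 7 neuronal, 3 of 7 microglial, 2 of 5 fibroblast and 1 of 4 endothelial markers were well above background on all arrays. Summed over its markers, the linear signal relative to the 75th percentile was 223 to 229 in PRF and 207 to 221 in control cells for astrocytes, 13.2 to 17.9 against 8.88 to 9.28 for microglia, and 52.1 to 56.2 against 54.8 to 56.8 for neurons. It was 134 to 149 in PRF and 143 to 153 in control cells for oligodendrocytes, 0.537 to 0.557 against 0.289 to 0.378 for fibroblasts, and 0.176 to 0.209 against 0.138 to 0.144 for endothelial cells. Such sums follow the brightest markers. In PRF cells Vim, S100b and Nes had mean log2 levels of 6.88, 6.02 and 5.26, and Gfap, Slc1a2 and Aqp4 -2.68, -3.03 and -4.95. Col1a2 rose by 2.72 and Kdr by 3.41. In control cells Kdr was well above background on 0 arrays and Col1a2 on 1, so the sizes of these rises are uncertain. Pdgfra of the fibroblast markers and Pecam1 of the endothelial ones differed by -0.67 and -0.09 (limma adjusted p = 0.0685 and 0.276). Snap25 rose by 0.97, while Nefl and Nefm fell by 0.29 and 0.19. Of the oligodendrocyte markers Mbp rose by 0.99, while Mog and Sox10 fell by 0.40 and 0.36. Among the microglial markers Aif1, Cx3cr1, P2ry12 and Ptprc were not well above background on any array, while Itgam, Tmem119 and Csf1r were on all 6. Itgam, an integrin of myeloid cells, had mean levels of 3.92 in PRF and 3.07 in control cells, a rise of 0.86 (limma adjusted p = 0.00363), and Tmem119 fell by 0.25 (adjusted p = 0.0483), while Csf1r differed by 0.16 (adjusted p = 0.156). The part of these markers in the results below was not tested. The precision of every value is limited by the 3 arrays per group.

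After PRF, 7 of 15 probes of the HSP90 system were higher and 0 were lower (limma, adjusted p below 0.05), where 18.4% of all 34826 tested probes were called higher and 12.7% lower. No probe was lower at an unadjusted p below 0.05 either, and 9 were higher, where 19.2% of all tested probes were lower and 23.8% higher. The 7 probes belonged to Hsp90aa1, Ahsa1, Stip1, Chordc1 and Fkbp4. Their rises were moderate, from 1.22-fold to 1.68-fold, and only 2 probes, 1 of Hsp90aa1 and 1 of Chordc1, reached 1.5-fold, as 12.7% of all tested probes did with a call. All 15 probes were well above background on all 6 arrays, so none of them passed the filter through 1 group alone. The median change over the 15 probes was 0.26 on the log2 scale, against 0.02 over all tested probes. For 12 of the 15 the 3 PRF arrays lay wholly above the 3 control arrays, which was so for 27.7% of all tested probes. In bulk RNA, a change in RNA per cell and a change in the share of cells cannot be told apart.

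**Figure D1:**
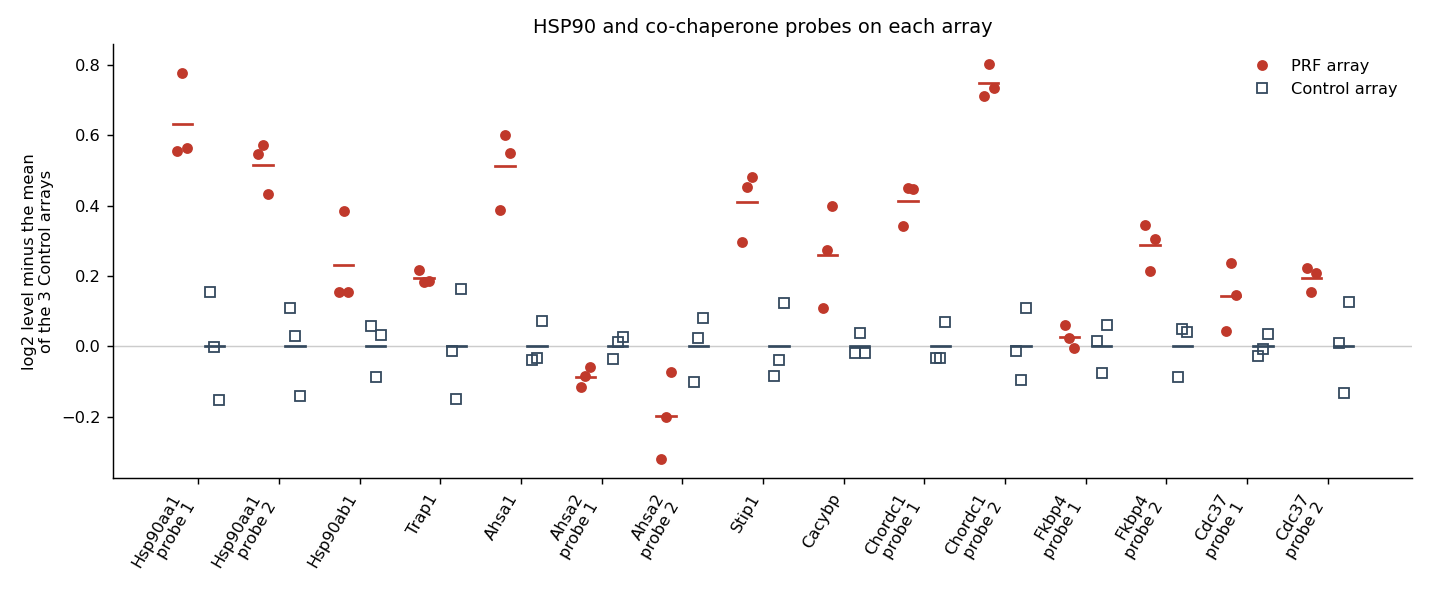
Log2 level of each of the 15 probes on each array, as the difference from the mean of the 3 control arrays of that probe. Filled circles are PRF arrays, open squares are control arrays and bars are group means. The PRF arrays lie above all control arrays for both Hsp90aa1 probes, for Ahsa1 and for Stip1, and overlap with them for Fkbp4 probe 1 and Ahsa2 probe 2.

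The cytosolic HSP90 genes differed in whether their change was called. Hsp90aa1 was measured by 2 probes of the transcript NM_010480. Its first probe, A_55_P2740832, had log2 levels of 6.63, 6.85 and 6.63 in PRF cells and 6.22, 6.07 and 5.92 in control cells, where a level is the log2 signal minus the 75th percentile of the array. The groups did not overlap, and the lowest PRF array stood above the highest control array. The rise was 0.63 (SE 0.11) on the log2 scale, or 1.55-fold (95% confidence interval 1.30 to 1.85, adjusted p = 0.00667). The second probe, A_55_P2796341, had levels of 6.45, 6.48 and 6.34 in PRF cells and 6.02, 5.94 and 5.77 in control cells. It rose as well, by 0.52 (SE 0.09, adjusted p = 0.00699), so both probes gave the same call.

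Hsp90ab1 had a single probe, with levels of 7.774, 8.005 and 7.776 in PRF cells and 7.678, 7.532 and 7.652 in control cells. Its groups did not overlap either, but the gap between them was narrow and 1 PRF array, replicate 2, stood above the other 2. The difference of 0.23 (SE 0.09) on the log2 scale, 1.17-fold, did not pass (limma adjusted p = 0.101). Its 95% confidence interval of 1.01-fold to 1.36-fold overlaps that of Hsp90aa1, and the test passed with normexp background correction (adjusted p = 0.0482), with array row as a block (adjusted p = 0.0356) and with a trended variance (adjusted p = 0.019). Hsp90aa1 and Hsp90ab1 encode closely similar proteins, and whether their probes bind each other's RNA was not tested.

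The difference between 2 probes on the same array does not depend on how arrays are scaled by a constant, so it was used to compare the genes with each other, over 10 pairs of probes chosen after the values were seen. The log2 signal of Hsp90aa1 probe 1 minus that of Hsp90ab1 was -1.15, -1.16 and -1.14 on the PRF arrays and -1.45, -1.46 and -1.74 on the control arrays. The balance of the 2 signals had thus moved towards Hsp90aa1 by 0.40 on the log2 scale, with no overlap. An exact two-sided permutation test gave p = 0.1, the smallest that 3 against 3 arrays allow, and 0.143 after adjustment over the 10 pairs, so the design could not call it. With Hsp90aa1 probe 2 the shift was 0.29, again without overlap. Of the 10 pairs, 3 overlapped, which were the 2 probes of Hsp90aa1 set against each other (-0.12, exact permutation p = 0.2) and likewise those of Ahsa2 (-0.11, p = 0.2) and Cdc37 (0.05, p = 0.6). Because the pairs were picked with the values known, the lack of overlap in the others is not a test. Of all tested probes taken singly, 50.2% did not overlap in either direction.

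Trap1 is the HSP90 of the mitochondrial matrix. It had levels of 1.07, 1.03 and 1.04 in PRF cells and 0.84, 0.70 and 1.01 in control cells. The PRF arrays were close together and just above the highest control array. The difference of 0.19 (SE 0.09) was not called (limma adjusted p = 0.159, 95% confidence interval 0.98-fold to 1.33-fold).

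Ahsa1 encodes AHA1, the activator of the HSP90 ATPase. It had levels of 6.82, 7.04 and 6.99 in PRF cells and 6.40, 6.40 and 6.51 in control cells. All PRF arrays were above all control arrays, and the gap between the groups was wider than the range within either. The rise was 1.43-fold (0.51 on the log2 scale, SE 0.08, adjusted p = 0.00537).

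Ahsa2, the paralog of Ahsa1, was not called in either direction with the 75th percentile. Its first probe, A_66_P119701, had levels of 1.9221, 1.9529 and 1.9778 in PRF cells and 2.0006, 2.0493 and 2.0631 in control cells. Here the PRF arrays lay below the control arrays by a small margin (difference -0.09, SE 0.06, adjusted p = 0.312). The second probe, A_51_P235297, had levels of -0.08, 0.04 and 0.16 in PRF cells and 0.14, 0.26 and 0.32 in control cells, with overlapping groups (difference -0.20, SE 0.09, adjusted p = 0.146). Without scaling between arrays the second probe was called lower (adjusted p = 0.031), and with spike-in scaling both were (adjusted p = 0.028 and 0.021), where 18.9% and 32.1% of all tested probes were called lower. The signal of Ahsa1 minus that of Ahsa2 probe 1 on the same array was 4.90, 5.09 and 5.01 in PRF cells and 4.40, 4.35 and 4.44 in control cells, a shift of 0.60 without overlap (exact permutation p = 0.1, the smallest possible). With Ahsa2 probe 2 the shift was 0.71.

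**Figure D2:**
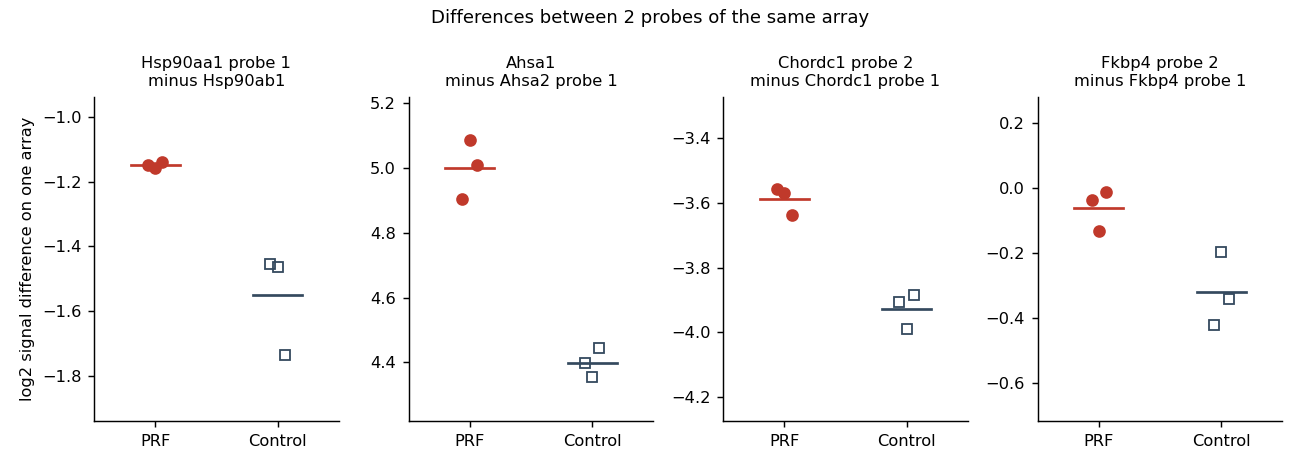
Difference of the log2 signals of 2 probes on the same array, for Hsp90aa1 probe 1 minus Hsp90ab1, Ahsa1 minus Ahsa2 probe 1, Chordc1 probe 2 minus probe 1 and Fkbp4 probe 2 minus probe 1. Filled circles are PRF arrays, open squares control arrays and bars group means, and each panel spans the same range on the vertical axis. In all 4 panels the PRF arrays lie above the control arrays, with shifts of 0.40, 0.60, 0.34 and 0.26.

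Stip1 encodes HOP, the adaptor that binds HSP70 and HSP90 at once and passes clients from one to the other. It had levels of 4.04, 4.20 and 4.23 in PRF cells and 3.66, 3.71 and 3.87 in control cells. The groups were separate, and the rise was 1.33-fold (0.41 on the log2 scale, SE 0.09, adjusted p = 0.016). The call was lost without control replicate 1 (adjusted p = 0.0533), without control replicate 2 (0.0584) and without PRF replicate 2 (0.0593). It was also lost without scaling between arrays (0.0581) and with spike-in scaling (0.113). Its size in those fits with an array left out was 0.37 to 0.39.

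Cdc37 encodes the co-chaperone that brings protein kinases to HSP90. Its first probe, A_52_P463143, had levels of 7.09, 7.28 and 7.19 in PRF cells and 7.02, 7.04 and 7.08 in control cells. The PRF arrays were higher by a narrow margin, and the difference of 0.14 (SE 0.07) was not called (adjusted p = 0.189). The second probe, A_55_P2740644, differed by 0.20 (SE 0.08, adjusted p = 0.126). The 95% confidence intervals were 0.976-fold to 1.247-fold and 0.995-fold to 1.317-fold. The signal of Stip1 minus that of Cdc37 probe 1 on the same array shifted by 0.27 in PRF cells, without overlap.

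Chordc1, also known as morgana, encodes a zinc-binding co-chaperone that joins HSP90 through a CHORD and a CS domain. Its second probe had the largest change of the 15, and its probes disagreed on the size. Probe 1, A_51_P305843, had levels of 3.14, 3.24 and 3.24 in PRF cells and 2.76, 2.76 and 2.86 in control cells. Probe 2, A_52_P637199, had levels of -0.42, -0.33 and -0.40 in PRF cells and -1.15, -1.23 and -1.02 in control cells. In both, every PRF array stood well apart from every control array. The rise was 1.33-fold by probe 1 (0.41, SE 0.07, adjusted p = 0.00635) and 1.68-fold by probe 2 (0.75, SE 0.08, adjusted p = 0.00112). With normexp background correction, which here added 50 to each signal, the log2 rises were 0.39 and 0.61. Both probes carry the accession NM_025844, and on each array the signal of probe 2 relative to probe 1 was higher after PRF, by 0.34 on average (exact permutation p = 0.1, the smallest possible).

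Heat shock factor 1 is known to bind inverted repeats of the unit GAA, so the promoters of the 8 genes that the RefSeq promoter table of build GRCm38.p6 holds were searched on both strands for the pairs GAANNTTC and TTCNNGAA and for runs of 3 units, in which 1 more unit follows a pair in the same spacing and alternation. A run thus always contains pairs. The window ran from 250 bases before the start of the gene to 50 after it. Either pair was found in 15.1% of 32851 promoters of the table and either run in 0.603%. Hsp90aa1 and Hsp90ab1 had no promoter there and were not searched. Among the 8 genes that were, a pair was found in Chordc1, Fkbp4 and Cdc37, and a run in Chordc1 alone. The Chordc1 match begins 4 bases before the annotated start and continues without a break through 5 units, which gives 3 overlapping runs, and a further pair lies 33 bases after the first base of the gene, beyond the stretch shown. The promoters are shown to let the units be seen, with matched bases in capitals. That of Chordc1 (chr9:18292017-18292285, + strand) runs 19 bases into the gene, and those of Fkbp4 (chr6:128438657-128438906, - strand) and Cdc37 (chr9:21149935-21150184, - strand) end just before the start, each written 5′ to 3′ along its gene.
Chordc1: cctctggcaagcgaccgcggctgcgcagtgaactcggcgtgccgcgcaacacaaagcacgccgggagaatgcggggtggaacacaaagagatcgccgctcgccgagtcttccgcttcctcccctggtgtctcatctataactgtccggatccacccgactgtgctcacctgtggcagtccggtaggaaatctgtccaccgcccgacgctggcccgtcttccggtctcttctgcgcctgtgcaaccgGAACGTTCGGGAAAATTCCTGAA
Fkbp4: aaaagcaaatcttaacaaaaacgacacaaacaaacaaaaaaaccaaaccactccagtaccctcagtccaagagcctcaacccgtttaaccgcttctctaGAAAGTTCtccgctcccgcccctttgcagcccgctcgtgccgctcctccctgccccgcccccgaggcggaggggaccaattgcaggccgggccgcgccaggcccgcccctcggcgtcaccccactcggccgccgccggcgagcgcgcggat
Cdc37: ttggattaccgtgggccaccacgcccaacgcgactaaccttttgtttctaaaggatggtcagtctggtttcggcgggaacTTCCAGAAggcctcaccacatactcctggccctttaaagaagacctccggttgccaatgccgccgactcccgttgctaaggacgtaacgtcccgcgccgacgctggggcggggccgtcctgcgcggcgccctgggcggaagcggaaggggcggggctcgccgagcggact
Ahsa1 and Stip1, which rose, had no match in this window, nor had Trap1, Ahsa2 and Cacybp, whose changes were not called. A match describes the letters and does not show binding.

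Fkbp4 encodes FKBP52, the immunophilin that helps HSP90 mature steroid receptors. Its 2 probes gave different calls. Probe 1, A_52_P585104, had levels of 1.95, 1.92 and 1.89 in PRF cells and 1.91, 1.81 and 1.95 in control cells. These groups overlapped and the difference was 0.03 (SE 0.07, adjusted p = 0.788). Probe 2, A_51_P185175, had levels of 1.91, 1.78 and 1.87 in PRF cells and 1.48, 1.62 and 1.61 in control cells. These did not overlap, and the rise of 1.22-fold (0.29, SE 0.07) passed (adjusted p = 0.0279). That call was lost whichever of the 6 arrays was left out (adjusted p from 0.0501 to 0.0857) and with array row as a block (adjusted p = 0.0604). On the same array, probe 2 minus probe 1 was -0.04, -0.13 and -0.01 in PRF cells and -0.42, -0.20 and -0.34 in control cells, which do not overlap either (exact permutation p = 0.1, the smallest possible). The change of Fkbp4 is therefore uncertain.

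Cacybp encodes a protein with a CS domain that binds calcyclin and the ubiquitin ligase Siah1. It had levels of 4.59, 4.76 and 4.88 in PRF cells and 4.46, 4.52 and 4.46 in control cells. The PRF arrays lay above the control arrays but were spread over a wider range. The difference of 0.26 (SE 0.09) missed the threshold (limma adjusted p = 0.069) and passed it without PRF replicate 1 (adjusted p = 0.0343) and with a trended variance (adjusted p = 0.0113).

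**Figure D3:**
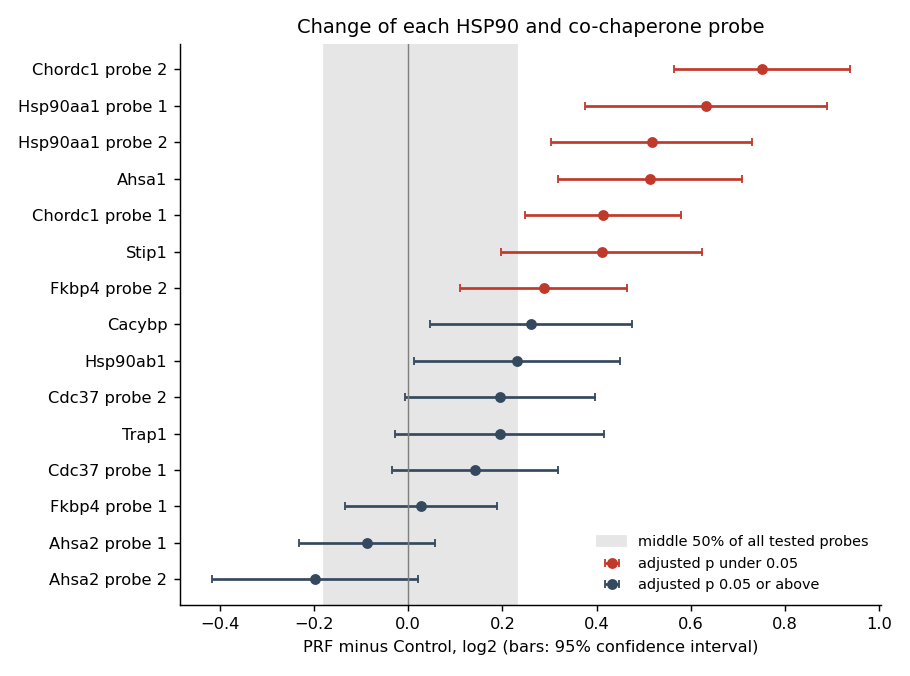
Change of each probe in PRF minus control cells on the log2 scale (horizontal axis), with its 95% confidence interval from limma. Red marks probes past an adjusted p of 0.05 over all tested probes, and the grey band spans the middle 50% of all tested probes, from -0.18 to 0.23. Chordc1 probe 2 (0.75) and Hsp90aa1 probe 1 (0.63) have the largest changes, and only the Ahsa2 probes lie below 0.

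The slide held the arrays in 2 rows, with PRF replicate 2 and control replicates 1 and 3 in row 1 and PRF replicates 1 and 3 and control replicate 2 in row 2. The rises had the same direction in both rows for each of the 7 called probes. For Hsp90aa1 probe 1 the change was 0.78 within row 1 and 0.56 within row 2, and for its probe 2 it was 0.59 and 0.46. Ahsa1 changed by 0.59 and 0.50, Stip1 by 0.43 and 0.43, Chordc1 probe 1 by 0.43 and 0.43, its probe 2 by 0.76 and 0.82, and Fkbp4 probe 2 by 0.24 and 0.28. Row 1 holds a single PRF array and row 2 a single control array, so each test within a row assumes that the lone array varies as the arrays of the other group do. In these tests limma called 0 of the 15 probes within either, with 5 and 3 higher at an unadjusted p below 0.05, where 17.5% and 14.2% of all probes tested there were. Across all tested probes 8.99% were called within row 1 and 0% within row 2.

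The size of the changes depended on the scaling between arrays. Compared with the 75th percentile, the median gene moved from -0.01 to -0.15 without scaling and to -0.20 with scaling on the spike-in probes, and changes of the HSP90 system moved down with it. Over all tested probes 6415 were called higher and 4418 lower with the 75th percentile, against 5169 and 7311 with quantile normalization, 5747 and 5865 with median scaling, 4096 and 6593 without scaling and 4556 and 11187 with spike-in scaling. Hsp90aa1 probe 1 kept a called rise under all 5 scalings, with the lowest value of 0.44 for spike-in scaling, as did Ahsa1 (lowest 0.32) and Chordc1 probe 2 (lowest 0.56). Without scaling, 3 probes were called higher and 1 lower (11.8% and 18.9% of all tested probes), and with spike-in scaling 4 and 2 (13.1% and 32.1%). Without scaling, the calls of Hsp90aa1 probe 2 (adjusted p = 0.0849), Stip1 (0.0581), Chordc1 probe 1 (0.0635) and Fkbp4 probe 2 (0.387) were lost, and with spike-in scaling those of Stip1 (0.113), Chordc1 probe 1 (0.0682) and Fkbp4 probe 2 (0.435). With spike-in scaling Hsp90ab1 changed by 0.04, and Fkbp4 probe 1 and Cdc37 probe 1 were below 0, at -0.17 and -0.05. Relative to the median probe, the order of the members is the same under each scaling by a constant.

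**Figure D4:**
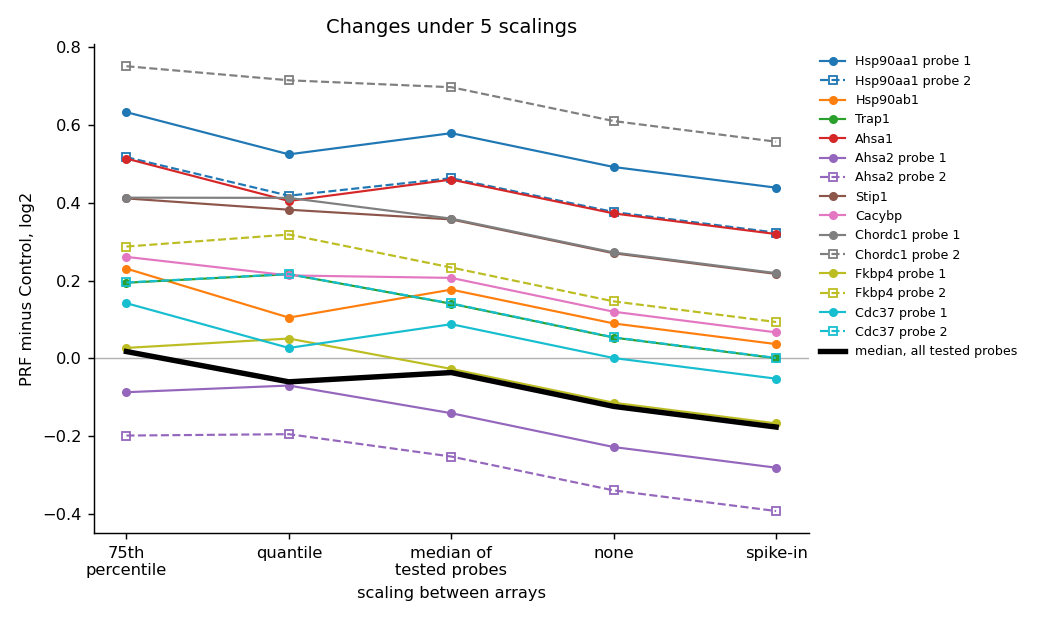
Change of each probe in PRF minus control cells on the log2 scale under 5 scalings between arrays, with the median of all tested probes as a thick black line. Circles with solid lines are first or single probes and open squares with dashed lines second probes. All lines, the median included, are lower with spike-in scaling than with the 75th percentile, those of Trap1 and Cdc37 probe 2 nearly coincide, and Chordc1 probe 2 and Hsp90aa1 probe 1 stay the highest.

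With 1 probe per gene, the one with the highest mean level, Hsp90aa1, Ahsa1, Stip1 and Chordc1 were called higher and 0 of the 10 genes lower. The background is 17.2% of 15067 tested genes called higher and 14.9% called lower. At an unadjusted p below 0.05, 6 of the 10 genes were higher and 0 lower. The share over all genes at that level is not given here, and over all tested probes, a different unit, 23.8% were higher and 19.2% lower. The median change of the 10 genes was 0.25 on the log2 scale, against -0.01 over all tested genes, and 0.052 for the 10 genes with spike-in scaling. The 5 named genes outside the system that lay nearest to Hsp90aa1 over the 6 arrays, each gene centred on its own mean, were Speer4cos, Gm8350, Vegfc, Gm5938 and Rnf19a, at Euclidean distances of 0.074 to 0.121 log2 units. Centring removes the level, and their mean levels in PRF cells were far lower than the 6.70 of Hsp90aa1. In that order they were -3.79, -1.69, 1.33, -5.30 and 2.47. Vegfc, a growth factor for lymphatic vessels, rose by 0.67 and Rnf19a, a ubiquitin ligase, by 0.67. Within the HSP90 system Ahsa1 was closest to Hsp90aa1 at 0.354, and Chordc1 followed at 0.424, Stip1 at 0.488 and Hsp90ab1 at 0.541. By this measure 283 genes, Hsp90aa1 itself included, were nearer to Hsp90aa1 than Ahsa1 was.

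A list of 39 further genes was drawn up as other HSP90 co-chaperones and assembly factors, with the paralog Hsp90b1. Of these 38 were tested, and 5 rose (13.2%) and 2 fell, beside 17.2% of all tested genes called higher and 14.9% called lower. Their changes had a median of 0.02 and ran from -0.44 to 0.71 on the log2 scale. Hsp90b1, the HSP90 of the endoplasmic reticulum, had mean levels of 6.59 ± 0.07 in PRF and 6.43 ± 0.02 in control cells (SD, n = 3, limma adjusted p = 0.0888). Ptges3, the p23 co-chaperone that holds HSP90 in its closed state, had 5.68 ± 0.05 and 5.53 ± 0.04 (adjusted p = 0.0922), and Ppid, the cyclophilin Cyp40, had 5.39 ± 0.03 and 5.27 ± 0.06 (SD, n = 3, limma adjusted p = 0.159, and 0.0489 with the mean of its probes). Dnajc7, a TPR protein that binds HSP70 and HSP90, differed by 0.10 (adjusted p = 0.202). With spike-in scaling the differences of these 4 genes were below 0.

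The 5 rises were those of Nek8, a kinase of the cilium, by 0.71 (SE 0.15, adjusted p = 0.0151), Hikeshi, the carrier that takes HSP70 into the nucleus, by 0.38 (adjusted p = 0.00581), Pih1d2, a PIH domain protein, by 0.38 (adjusted p = 0.00461), Fnip1, the folliculin partner, by 0.38 (adjusted p = 0.0144) and St13, the HSP70-interacting protein HIP, by 0.24 (adjusted p = 0.0143). All 4 tested probes of Hikeshi rose. Whether Nek8 and Hikeshi act with HSP90 was not tested, so the name co-chaperone may not hold for them. None of the 5 was called without scaling (adjusted p from 0.0581 to 0.422). Ttc4, a TPR co-chaperone, fell by 0.31 (adjusted p = 0.013) and Fkbpl, an FKBP-like protein, by 0.44 (adjusted p = 0.0394). The calls of St13 and Nek8 were lost without control replicate 2 (adjusted p = 0.0565 and 0.0524), those of St13 and Fnip1 without PRF replicate 2 (0.0557 and 0.0553) and that of Fnip1 without control replicate 3 (0.0508). The call of Fkbpl was lost when either PRF replicate 2 or any of the control arrays was left out (adjusted p from 0.0633 to 0.111) and with array row as a block (adjusted p = 0.0887). Without control replicate 2 or without PRF replicate 2, 4 of the list were called in place of 7, where 22% and 20.5% of all genes were called in either direction.

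Of 40 listed client genes of HSP90 34 were tested, with 2 higher (5.88%), 5 lower and a median of -0.02, beside 17.2% of all tested genes called higher and 14.9% lower. Lck, a kinase best known from T cells, rose by 1.66 (SE 0.19, adjusted p = 0.00157), and Ahr, the receptor for dioxins and tryptophan metabolites, by 0.55 (SE 0.07, adjusted p = 0.00218). The receptor kinase gene Erbb2 fell by 0.45 (adjusted p = 0.00163), Plk1, a mitotic kinase, by 0.49 (adjusted p = 0.00523) and Aurkb, a kinase of cell division, by 0.36 (adjusted p = 0.0411). Ripk1, a kinase of cell death signalling, fell by 0.30 (adjusted p = 0.0103), with 1 of its 2 probes called over all probes, and was not called with the mean of all its probes (-0.13, adjusted p = 0.0952). Chuk, a kinase of NF-kB activation, fell by 0.18 (adjusted p = 0.0482), with neither of its 2 probes called over all probes, and lost its call with array row as a block (adjusted p = 0.105). The call of Chuk was lost whichever of the 6 arrays was left out (adjusted p from 0.0739 to 0.13), and so was that of Aurkb except for PRF replicate 3 (from 0.0509 to 0.119). Akt1, Cdk4 and Ilk, among the clients with the highest levels that were not called, differed by 0.06, 0.04 and -0.01 (adjusted p = 0.452, 0.655 and 0.953). Akt1 had 1 of its 2 probes called over all probes, and with the mean of all its probes it was called higher (0.22, adjusted p = 0.0381).

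The HSP70 system, part of which hands clients to HSP90 through Stip1, had members with much larger changes. Of its 28 listed genes, all tested, 12 rose and 1 fell, a share of rises of 42.9% against 17.2% of all genes, with a median of 0.17, which was -0.02 with spike-in scaling. The list also holds the heat shock factor genes Hsf1 and Hsf2, neither of which was called (limma adjusted p = 0.716 and 0.807). Hspa1a, the inducible HSP70, had levels of 8.10 ± 0.11 in PRF and 3.08 ± 0.03 in control cells (SD, n = 3), a log2 rise of 5.02 beside the 0.63 of Hsp90aa1. Dnajb1, the HSP40 known to respond to heat together with it, rose by 0.67 (SE 0.08, adjusted p = 0.00194), Bag3, which joins HSP70 to small heat shock proteins, by 0.56 (SE 0.08, adjusted p = 0.00301) and Dnaja4, another HSP40, by 0.45 (adjusted p = 0.0157, and 0.0589 without PRF replicate 2). Hspa1b, Hsph1, Hspa1l and Dnajb4 rose by 4.62, 2.06, 1.84 and 1.42. The gene that fell, Hspa14, an atypical HSP70 of the ribosome, is named here after its values were seen (-0.21, adjusted p = 0.0264). Of its 4 probes 1 was called over all probes. With the mean of all probes of a gene, 0 genes of the list were lower even at an unadjusted p below 0.05. Hspa1a and Hspa1b are near-identical copies, and their separate values are uncertain. Hspa8, the constitutive HSP70, differed by 0.17 (adjusted p = 0.102, with 1 of its 4 probes called over all probes, and 0.022 with the mean of its probes), Hspa5 by 0.17 (adjusted p = 0.0745, with 2 of 3 probes called, and 0.0245 with their mean), Hspa4 by -0.13 and Bag1 by 0.07.

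**Figure D5:**
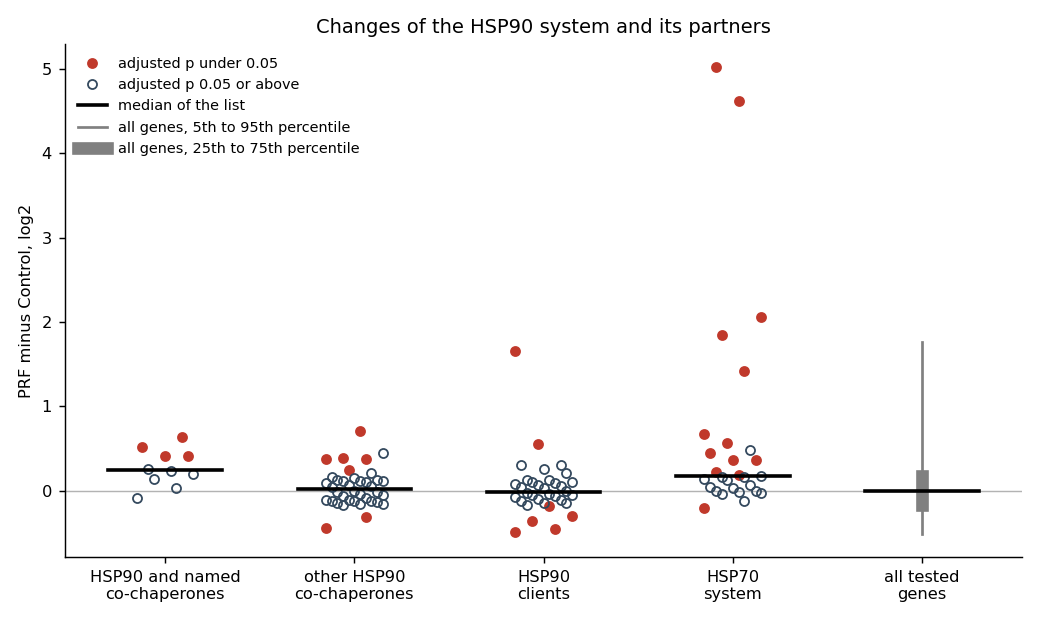
Change in PRF minus control cells on the log2 scale for each tested gene of the HSP90 system described above, of the other HSP90 co-chaperones, of HSP90 clients and of the HSP70 system, with the spread over all 15067 tested genes at the right. Filled points passed an adjusted p of 0.05 over all genes and black bars are medians. The HSP90 genes lie between -0.09 and 0.63, while Hspa1a and Hspa1b of the HSP70 system stand at 5.02 and 4.62.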

How the data were processed

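Per the file headers, the deposited intensity values came from the scanner through Agilent Feature Extraction 10.7.3.1. Each spot has a processed signal from which background was taken, with no normalization between arrays, and flags (scored 0 or 1) for spots well above background, saturated or outlying. The authors' deposited value table held the same intensity values on a linear scale. The sources used here record no other step. The array design refers to mouse build mm9.

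Processed signals were converted to log2, control and outlier spots left out, spots of a probe averaged and the 75th percentile of each array subtracted. A probe was tested if well above background on all 3 arrays of a group, which 34826 probes with a value on every array were. limma 3.58.1 in R 4.3.3 (lmFit and eBayes, group as the only term) gave p-values, adjusted by Benjamini-Hochberg over all tested probes for the 15 probes, and over 15067 genes for the lists, each gene by its brightest probe. Probes were named by RefSeq accession (32994 of 56605).

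Members, lists and tests were chosen with earlier results of these data known. The rule named all 10 members, up to 8 called and 4 uncalled genes of each list, and the 5 genes nearest to Hsp90aa1, of which 1 uncalled gene is not reported here. The labels name 3 independent experiments without saying how cultures were kept apart, so p-values reflect only how far these samples spread. Whether replicate numbers pair the arrays could not be decided (closing section). Background signals were available as medians only, so normexp used the median signal, with an offset of 50 added. Alternatives covered background correction, scaling, filters, blocks, variance model and each array left out.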

Additional observations from a re-analysis of the deposited data

How the results depend on the processing

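Counts of called genes or probes changed by over 1.5 times in these cases. Other HSP90 co-chaperones numbered 7 and became 11 with median scaling, 12 with a trended and robust variance and 11 with the mean of all probes of a gene. In these fits 36.5%, 37.3% and 32.2% of all genes were called in either direction. With spike-in scaling they became 15 (1 higher and 14 lower, where 12.3% of all genes were called higher and 39.2% lower). HSP90 clients numbered 7 and became 14 with spike-in scaling (2 higher and 12 lower, beside the same 39.2%). Probes of the HSP90 system numbered 7 and became 4 without scaling (3 higher and 1 lower). With spike-in scaling they were 6, of which 4 were higher and 2 lower. Within array rows 1 and 2, where fewer arrays remain, limma called 0 and 0 of the 15 probes, 0 and 0 of the 10 genes, 0 and 0 of the other co-chaperones (7 and 1 at an unadjusted p below 0.05), 2 and 0 clients (8 and 5 at an unadjusted p below 0.05) and 6 and 4 genes of the HSP70 system. Of the 10 genes, 4 and 3 had an unadjusted p below 0.05 there. With 1 array left out, the counts ran from 5 to 7 for the 15 probes, 3 to 5 for the 10 genes, 4 to 7 for the other co-chaperones, 5 to 7 for clients and 9 to 12 for the HSP70 system. In these fits 20.7% to 30.8% of all tested probes and 20.5% to 32% of all genes were called in either direction. The cause of these differences was not tested.

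Signs turned mostly where values were small. With spike-in scaling Fkbp4 probe 1 was -0.17, Cdc37 probe 1 -0.052, Hsp90b1 -0.036, Ptges3 -0.048, Ppid -0.076, Dnajc7 -0.091, Akt1 -0.14, Cdk4 -0.15, Hspa5 -0.026, Hspa8 -0.023, Bag1 -0.13, the median of the other co-chaperones -0.17 and that of the HSP70 system -0.025. Without scaling Fkbp4 probe 1 was -0.11, Ppid -0.023, Dnajc7 -0.038, Akt1 -0.085, Cdk4 -0.10, Bag1 -0.073 and the co-chaperone median -0.12. With quantile normalization Akt1 was -0.029, Cdk4 -0.048 and Bag1 -0.020. With median scaling Fkbp4 probe 1 was -0.027, Cdk4 -0.015 and the co-chaperone median -0.035. Ilk turned to 0.0026 and the client median to 0.020 with array row as a block. Within row 1 Fkbp4 probe 1 was -0.014 and the client median 0.028, and within row 2 Cdk4 was -0.0012 and Ilk 0.074. With 1 array left out, Fkbp4 probe 1 ran from -0.011 to 0.058, Ilk from -0.049 to 0.027, the client median from -0.029 to 0.039 and the co-chaperone median from -0.025 to 0.050. The cause of these turns was not tested beyond the shift of all genes that each scaling makes.

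Of the counts recomputed, 81 stayed within 1.5 times and 18 did not. Deviations of same-numbered arrays correlated at 0.15, -0.08 and 0.05, and those of differently numbered arrays at -0.17 to 0.13. Same-numbered arrays lay in different rows, so these values cannot decide whether the numbers pair the samples. Array row as a block lost the calls of Fkbp4 probe 2, Fkbpl and Chuk and gained that of Hsp90ab1. The mean of all probes of a gene lost the calls of Chuk (adjusted p = 0.155), Ripk1 and Hspa14 and gained those of Akt1, Ppid, Hspa5 and Hspa8. With a replicate block 6 of the 15 probes and 4 of the 10 genes were called, all higher, where 16.6% of all tested probes and 16% of all genes were called higher. With that block Fkbp4 probe 2 (adjusted p = 0.0716), Chuk and Aurkb lost their calls. All 15 probes were well above background on all arrays, but sizes could still depend on background correction. The change of Chordc1 probe 2 was 0.61 with normexp and 0.75 with the processed signal. Its processed signals were 271 to 474, and normexp added an offset of 50, whose part in the smaller change was not tested.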
